A study of Mus musculus with 5 samples.

Results

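The genes of voltage-gated calcium and sodium channels are described here by the peaks of REST (RE1-silencing transcription factor) called at them in the embryonic mouse pancreas. The genes were taken by name: every protein-coding gene of the GENCODE vM1 annotation of mm9 whose symbol starts with Cacna, Cacnb or Cacng, or is Scn followed by a number and a or b. This gave 40 of 22225 protein-coding genes, by symbol alone. They fall into 6 subunit classes, with 10 calcium channel alpha1, 4 alpha2delta, 4 beta and 8 gamma genes, and 10 sodium channel alpha and 4 beta genes. A peak counted for a gene when any of its bases lay in the gene body or within 50 kb of the gene start, whereas distances given for a site are those of its centre.

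Voltage-gated channels open when the membrane depolarises. The alpha subunit of each forms the pore and senses the voltage, and the smaller subunits carry the channel to the membrane and tune its opening. Neurons use them to fire and to release transmitter, and islet endocrine cells use calcium entry through such channels to trigger hormone secretion. REST is a zinc-finger repressor that reads a DNA element called RE1 and recruits corepressors, and it keeps many neuronal genes silent outside the nervous system.

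Chromatin of untreated whole pancreas from wild-type embryos, on a mixed background with C57BL/6, was immunoprecipitated with the monoclonal anti-REST antibody 12C11 and sequenced. The stages, named by embryonic day, were E13.5 (libraries A and B, pools of 4 to 6 pancreases) and E18.5 (libraries A, B and C, pools of 3 to 4), and the libraries of a stage are labelled as biological replicates. A letter shared between stages does not mark the same embryos. After overlapping entries of a list were joined, the deposited lists held 1400 and 1333 peaks at E13.5 and 541, 417 and 226 at the later stage, with median widths from 161 bp in E13.5 A to 483 bp in E13.5 B. Each peak carried a score of unstated unit, so scores were also expressed as a percentile within their own library, with 100 for the highest. Depth is unknown because read totals were not used here, and a gene without a called peak cannot be said to be unbound.

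In the E13.5 pancreas REST sites lay at channel genes of every class except the calcium channel beta subunits. A site called in both E13.5 libraries was found at 16 of the 40 genes (40%, exact 95% binomial interval 24.9% to 56.7%), where 6.93% of all protein-coding genes had one. The interval treats the genes as independent draws, which they are not, since Cacna1c and Cacna2d4 counted through the same site. The 16 were Cacna1a, Cacna1b, Cacna1c, Cacna1f, Cacna1h, Cacna1i, Cacna2d2, Cacna2d3, Cacna2d4, Cacng2, Cacng3, Cacng4, Cacng5, Scn2a1, Scn10a and Scn3b. Another 3 genes, Cacna1e, Cacng7 and Scn4b, had a peak in 1 E13.5 library only, so that 19 of 40 (47.5%) had a peak in any library against 9.84% of all genes. The other 21 had none in any of the 5 libraries.

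Channel genes are long, and a long gene has a larger window in which a peak can count. Their median window was 146.6 kb, while the median of all genes was the smallest window possible, 50 kb on each side of the start. Among the 20 channel genes with a window of at least that median, 10 had a site in both E13.5 libraries (50%), and 11.7% of the genes with a window that long did. Counting only sites within 5 kb of an annotated transcript start left 7 of 40 channel genes (17.5%), namely Cacna1b, Cacna2d4, Cacng2, Cacng3, Cacng5, Scn2a1 and Scn3b, against 1.9% of all genes. The Cacng5 site entered by its edge, its centre lying 5.22 kb from the start. Counting only sites whose nearest protein-coding start was the gene's own left 14 of 40 (35%) against 3.34%. Several sites at 1 gene were found for Cacna1a, Cacna2d2, Cacna2d4 and Cacng2, which is 4 of 40 (10%) with 2 or more sites in both E13.5 libraries, where 0.909% of all genes had as many. These shares are descriptions of the lists, and no test was made over genes.

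**Figure D1:**
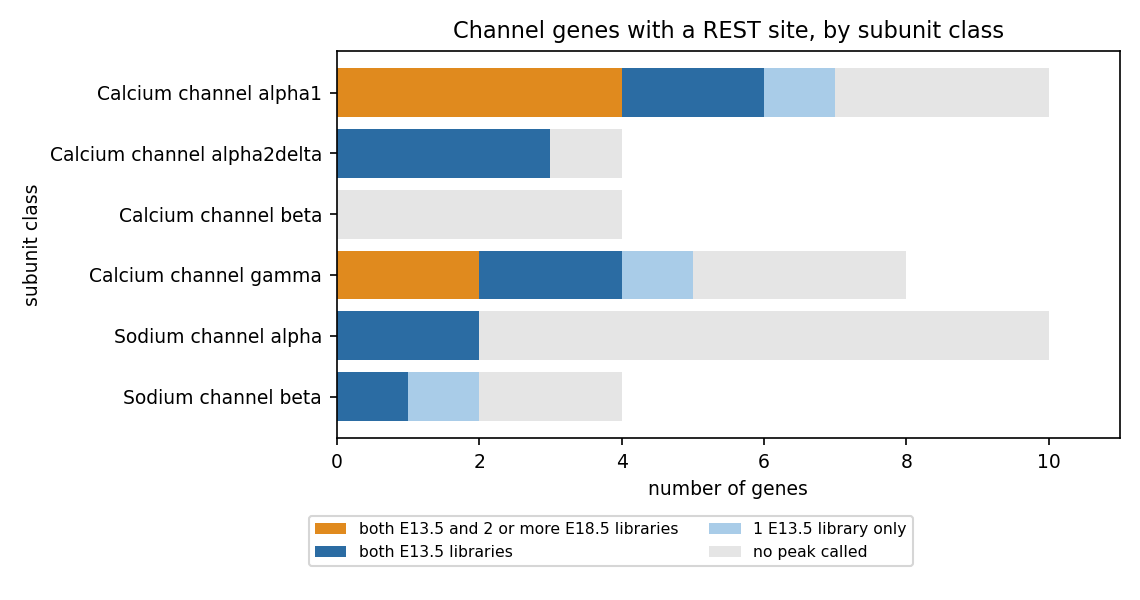
Number of genes (x axis) in each subunit class (y axis), coloured by the libraries in which a REST peak was called. 6 of 10 calcium channel alpha1 genes had a site in both E13.5 libraries, 2 of 10 sodium channel alpha genes did, and the 4 calcium channel beta genes had no peak.

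The RE1 elements under these sites are shown first, because they are a feature of the sites that the choice of genes did not use. A 21-bp consensus was built from the reproducible E13.5 sites that lie at no channel gene, aligned on a short seed with at most 2 mismatches, and 934 of those sites entered it. Its first 9 bases are called the left arm and its last 10 bases the right arm, with 2 bases between them.
RE1 consensus: TTCAGCACCATGGACAGCGCC
left arm: TTCAGCACC
right arm: GGACAGCGCC
Windows of 500 bp centred on each site were searched on both strands for the full 21 bases with at most 5 mismatches. Of the 20 sites called in both E13.5 libraries, 17 held a match (85%, interval 62.1% to 96.8%), against 843 of 1183 sites genome-wide (71.3%). Shifted 10 kb downstream, the windows held a match at 1 of 20 channel sites and at 3 of 1183 sites (0.254%). The centre of the match was a median of 13 bp from the centre of the site.

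The elements closest to the consensus are printed with capitals where the base equals the consensus and lower case where it differs, each 5′ to 3′ on its own strand of mm9.
Scn2a1, chr2:65458021-65458041, plus strand: TTCAGCACCAcGGACAGCaCC
Cacna1h, chr17:25537579-25537599, minus strand: TTCAGCACCAcGGACAGCGaC
Cacna1i, chr15:80108248-80108268, plus strand: aTCAGCACCAcGGACAGCGaC
Cacna2d3, chr14:30470389-30470409, minus strand: TTCAGCACCAaGGACAGCaaC
Cacng4, chr11:107678715-107678735, plus strand: TcCAGCACCAcGGACAGCGgC
Cacng2 intron, chr15:77897126-77897146, minus strand: TTCAGCACCtTGGAgAGCtCC
Scn10a, chr9:119616016-119616036, minus strand: TTCAGCACCAcGGACAGaGCa
Cacna1f, chrX:7215863-7215883, plus strand: TcCAGCACCgTGGACAGaGCC
Cacna1a, the intronic site nearer the start, chr8:86978642-86978662, minus strand: TTCAGCACCATGGcCAGCagC
Cacna1a, the intronic site farther from the start, chr8:86995359-86995379, plus strand: TTCAGCACgcTGGACAGCaCC
Scn2a1 and Cacna1h differed from the consensus at 2 bases and the other 8 of these elements at 3. The T-type channel genes Cacna1h and Cacna1i, on chromosomes 17 and 15, carried elements identical at 20 of 21 bases. Over the 136 pairs of the 17 elements, the number of identical bases ranged from 13 to 20 with a median of 16.

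The remaining 7 elements differed from the consensus at 4 or 5 bases, and they are printed to show which bases the weaker matches kept.
Cacna1b, chr2:24617603-24617623, plus strand: gTCAGCACCAcGGACAGCtgC
Cacna2d2 upstream, chr9:107284206-107284226, plus strand: aTCAGCACCAcGGAgAGCtCC
Cacna2d2 intron, chr9:107389377-107389397, minus strand: TTCAGtACCcTGGAtAGaGgC
Cacna1c and Cacna2d4, chr6:119183249-119183269, plus strand: TcCAGgACCATGGACAGaaaC
Cacna2d4 intron, chr6:119270695-119270715, minus strand: aTCAGgACCcTGGACAGgGaC
Cacng2 upstream, chr15:77983685-77983705, minus strand: agCAGCACCcTGGACAGCGtg
Scn3b, chr9:40077325-40077345, minus strand: cTCAGCACCAcGGACAGtagC
Counted from 1 at the 5′ end, positions 3, 4, 5, 7, 8, 12, 13, 16 and 17 held the consensus base in all 17 elements. At these positions 93.6% to 99.9% of the 826 elements at other sites held it too, so this is no trait of the channel genes. Both groups were found by their match to this consensus, with at most 5 mismatches. Position 20 held it in 6 of 17 (35.3%), where 64.3% of the 826 elements at other sites did, and position 11 in 8 of 17 (47.1%) against 51.5%. Elements with 3 or fewer mismatches made up 10 of 17, 2 with 2 mismatches (11.8%) and 8 with 3 (47.1%), where 1.33%, 9.20% and 29.3% of elements at other sites had 1, 2 and 3 mismatches. Positions were not tested one by one.

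**Figure D2:**
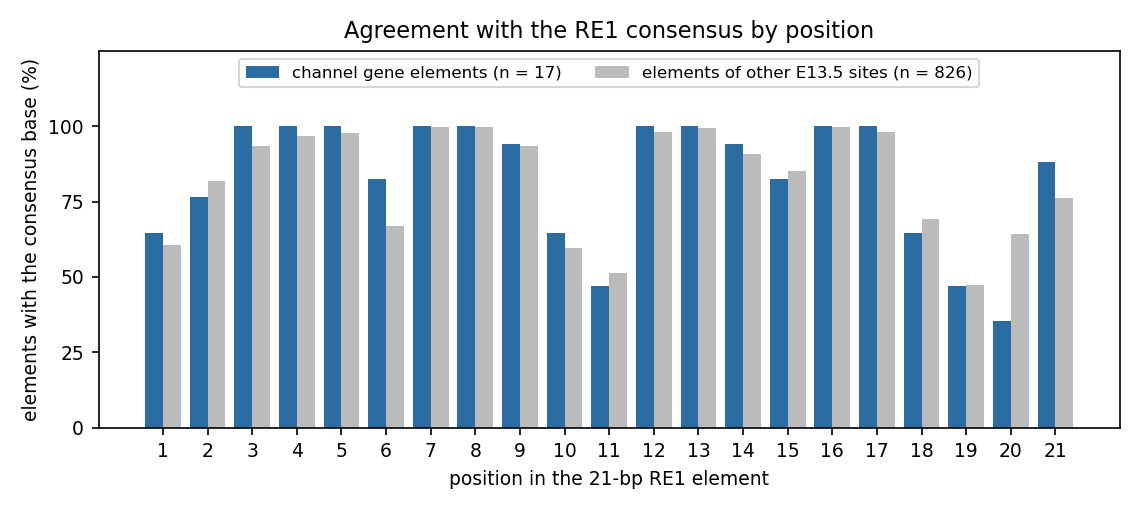
Percentage of RE1 elements with the consensus base (y axis) at each of the 21 positions (x axis), for the 17 elements at channel genes and the 826 elements at other sites called in both E13.5 libraries. Both groups are lowest in the middle and towards the right end, and position 20 stands at 35.3% for the channel genes and 64.3% for the others.

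The gamma subunits, small membrane proteins of which several also act as auxiliary subunits of AMPA-type glutamate receptors (TARPs), held the highest-ranked site of the set. It lay across the start of Cacng2, which encodes stargazin, in the untranslated region with its centre 92 bp downstream of the gene start (chr15:77950013-77950719). Its scores were 51 and 95 at E13.5 A and B and 30, 26 and 28 at E18.5 A, B and C. It was called in all 5 libraries, at percentiles between 93.8 and 99.6, and its mean E13.5 percentile of 99.2 put it in place 7 of 1186 sites. The next of the channel gene sites stood in place 185.

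This Cacng2 site was 1 of the 3 sites without a full RE1, its best match having 8 mismatches. A search for the arms separately, made after the sequences had been seen, allowed 1 mismatch in the left arm, 2 in the right and a gap of up to 30 bp. In this window 4 copies of an inverted arrangement were found, the right arm on the other strand followed by the left arm with 2 bases between. They are shown with both arms in capitals and the spacer in lower case, on the minus strand, on which Cacng2 is annotated.
chr15:77950439-77950459: GGAGTTGTCCagTTCAGCACC
chr15:77950385-77950405: AGAGCTGTCCagTCCAGCACC
chr15:77950329-77950349: GGAGCTGTCCacTTCAGCACT
chr15:77950273-77950293: TGAGCTGTCCgtTTCAGCACC
Such inverted pairs occurred at 37 of the 340 sites without a full match (10.9%) and in 1 of 1183 control windows (0.0845%). Any arrangement of both arms occurred at 179 of the 340 (52.6%) and in 8 control windows (0.676%). The Cacng2 window also held 2 wider pairs on 1 strand, each with 3 mismatches. In 1 the left arm came first, with 16 bp between, and in the other the right arm came first, with 21 bp between.

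Cacng3, which encodes the related TARP gamma-3, also had its site at the promoter, 735 bp upstream of the start (chr7:129814196-129814850). Its scores were 20 and 41 at E13.5 and, in order, 10, 9 and 12 at E18.5 A, B and C. It too was called in all 5 libraries, with a mean E13.5 percentile of 82.9, and the higher E13.5 value came from library B. The best full RE1 match had 6 mismatches, and the window held 2 inverted pairs of arms with 1 base between, printed in the same way on the plus strand.
chr7:129814449-129814468: GGAGCTGTCCcTTCAGCACC
chr7:129814521-129814540: GGAGCTGTCCgCTCAGCACC

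Cacng5 and Cacng4 are neighbours on chromosome 11, and each had its own upstream site. The Cacng5 site, 5.22 kb upstream (chr11:107781342-107781833), scored 23 and 19 at E13.5 and 8 at E18.5 A, and was not called in E18.5 B or C. It was the last of the 3 without a full match and held a pair of arms on 1 strand with 1 base between, as well as an inverted pair that shares the left arm.
same strand, chr11:107781616-107781635: GTCAGCACCtGGACAGCTCC
inverted, chr11:107781605-107781624: AGAGCTGTCCaGTCAGCACC
The Cacng4 site, 22.8 kb upstream (chr11:107678413-107678978), scored 13 and 22 at E13.5 and was called in no E18.5 library. Cacng1, the skeletal muscle gamma subunit in the same cluster, had no peak, and the Cacng4 site lay 50.6 kb outside its window.

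Cacng2 had 2 further sites at E13.5, both with a full RE1. The site in its intron, 53.3 kb from the start, scored 26 and 31 at E13.5 and 11 at E18.5 A, and its mean percentile of 84.8 was the second highest among the channel genes. The site 33.2 kb upstream scored 7 and 13, had no E18.5 peak, and was nearer to the start of Ift27, 20.9 kb away. Of the gamma genes clustered on chromosome 7, Cacng7 had a peak in E13.5 B only, with a score of 16 and a mismatch count of 2 in its RE1, inside an intron of Prkcc and 4.58 kb upstream of Cacng7, and Cacng6 and Cacng8 had none.

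**Figure D3:**
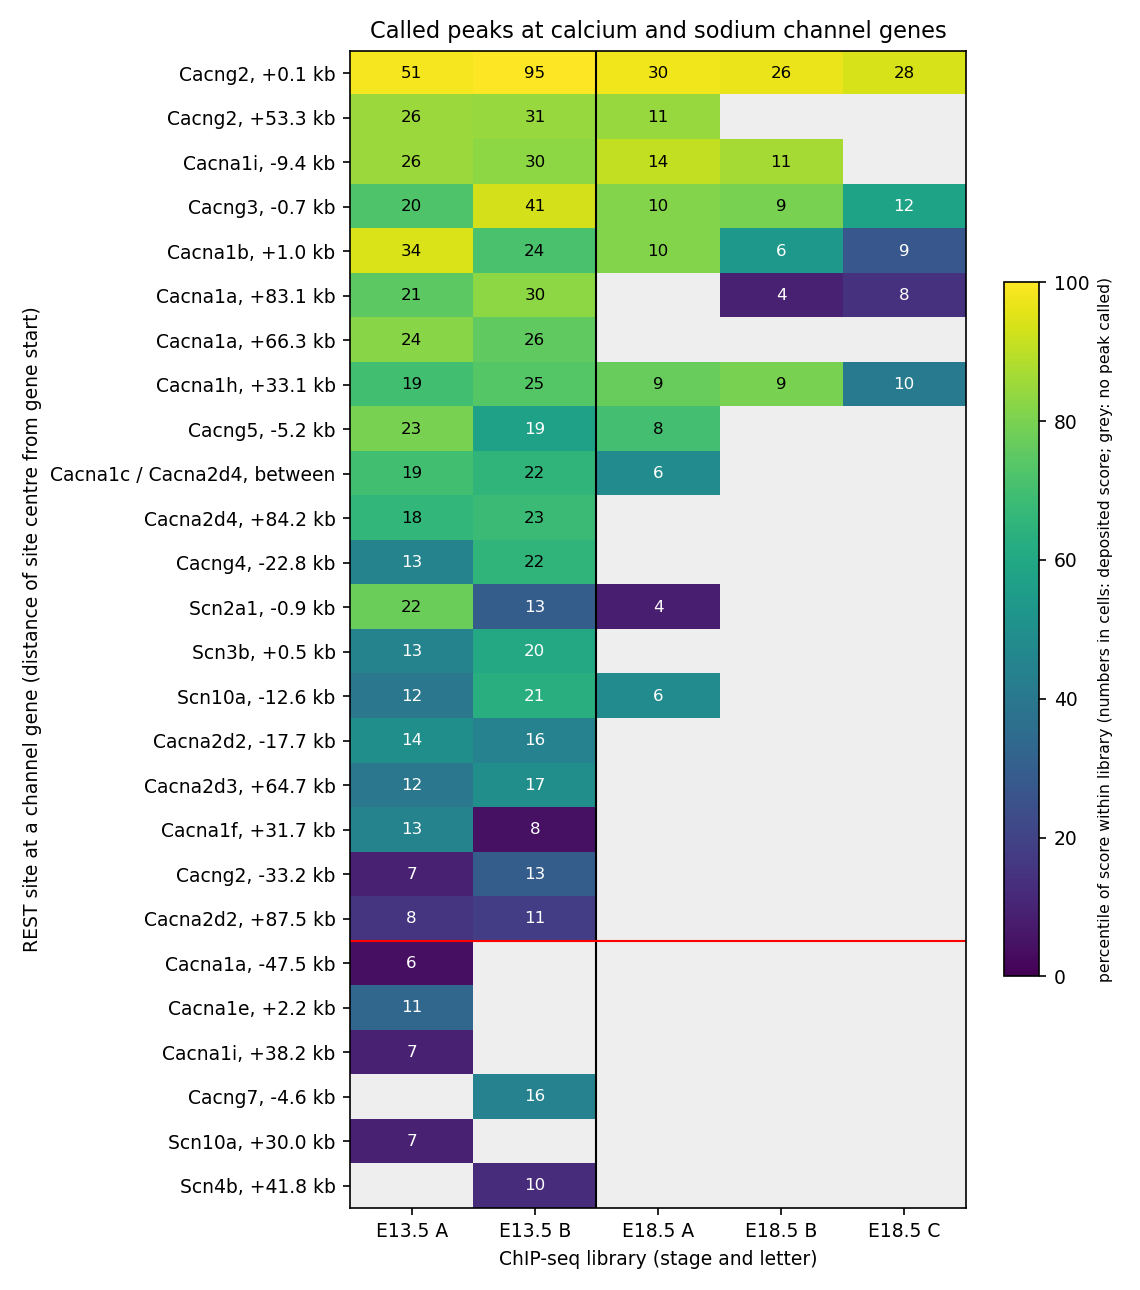
The 26 REST sites at channel genes (y axis, with the distance of the site centre from the gene start) in the 5 libraries (x axis). Colour gives the percentile of the score within its library, numbers give the deposited score, grey marks no called peak, and the red line separates the 20 sites of both E13.5 libraries from the 6 of a single one; the Cacng2 start is high in all 5 columns.

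The alpha1 genes, which encode the calcium channel pores, had a site in both E13.5 libraries at 6 of 10. The P/Q-type gene Cacna1a and the N-type gene Cacna1b encode the presynaptic channels that drive transmitter release. The Cacna1b site lay in its intron 1046 bp downstream of the start (chr2:24617367-24617885) and scored 34 and 24 at E13.5 and, in order, 10, 6 and 9 at E18.5. It was called in all 5 libraries, and its percentile ranged from 94.3 in E13.5 A and 81.5 in E18.5 A to 27.0 in E18.5 C. Its element is printed with 40 bases on each side, in capitals, since it lies closest to the start of a calcium channel pore gene.
Cacna1b, chr2:24617563-24617663, plus strand: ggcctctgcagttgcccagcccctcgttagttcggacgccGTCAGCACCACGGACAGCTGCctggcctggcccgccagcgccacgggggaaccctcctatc

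Cacna1a had 2 intronic sites, 66.3 kb and 83.1 kb from its start. The nearer one (chr8:86978375-86978893) scored 24 and 26 at E13.5 and had no E18.5 peak. The farther one (chr8:86995128-86995653) scored 21 and 30 at E13.5, was not called in E18.5 A, and scored 4 and 8 in E18.5 B and C. Their mean E13.5 percentiles were 78.9 and 79.0, so of these sites of near-equal rank the farther one alone was called at E18.5. Its E18.5 peaks were near the bottom of their lists, at percentile 9.11 in B and 14.4 in C. A further Cacna1a peak, 47.5 kb upstream, was in E13.5 A only, with a score of 6 and no full RE1.

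The T-type genes Cacna1h and Cacna1i encode low-voltage-activated pores. The Cacna1h site, in an intron 33.1 kb from the start (chr17:25537323-25537838), scored 19 and 25 at E13.5 and, in order, 9, 9 and 10 at E18.5, and was called in all 5 libraries. The Cacna1i site, 9.41 kb upstream (chr15:80107993-80108530), scored 26 and 30 at E13.5, 14 and 11 at E18.5 A and B, and was not called in E18.5 C. Cacna1i also had a peak in its intron in E13.5 A only, 38.2 kb from the start, with a score of 7 and no full RE1. Cacna1g, the remaining T-type gene, had no peak in any library. The elements of this pair are printed with 40 bases on each side, with the 21 bases of the element in capitals.
Cacna1h, chr17:25537539-25537639, minus strand: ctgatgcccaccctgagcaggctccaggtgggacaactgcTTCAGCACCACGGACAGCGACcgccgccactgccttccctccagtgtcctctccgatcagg
Cacna1i, chr15:80108208-80108308, plus strand: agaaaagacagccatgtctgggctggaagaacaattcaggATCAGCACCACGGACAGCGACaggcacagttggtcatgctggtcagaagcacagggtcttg

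Neither site at an L-type gene had that gene's start as its nearest. A single site between the divergent genes Cacna1c and Cacna2d4 (chr6:119182943-119183489) counted for both, 37.0 kb upstream of Cacna1c and 3.33 kb upstream of Cacna2d4. It scored 19 and 22 at E13.5 and 6 at E18.5 A. The Cacna1f site (chrX:7215693-7216103) lay past the end of Cacna1f, in a coding exon of Syp, the synaptic vesicle protein synaptophysin, 50 bp from a Syp start. Its scores were 13 and 8, the second of these at percentile 4.46 of E13.5 B, and no E18.5 library called it. Cacna1d, which encodes an L-type pore of islet cells, and Cacna1s, that of skeletal muscle, had no peak, and the nearest reproducible E13.5 site to Cacna1d was the one in Cacna2d3. The R-type gene Cacna1e, which islet cells also use, had a peak 2.24 kb downstream of its start in E13.5 A only, with a score of 11.

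The alpha2delta subunits are extracellular proteins that raise the number of channels at the surface, and 3 of 4 had a site. Besides the site shared with Cacna1c, Cacna2d4 had one 84.2 kb from its start that lies in a coding exon of Lrtm2, a gene nested in its intron, with scores of 18 and 23. Cacna2d2 had sites 17.7 kb upstream, with scores of 14 and 16, and in its intron 87.5 kb from the start, with scores of 8 and 11. The intronic Cacna2d3 site, 64.7 kb from the start, scored 12 and 17. Apart from the shared site, none of these 4 was called at E18.5, and their percentiles at E13.5 lay between 15.4 and 68.0. Cacna2d1, the form that skeletal muscle uses among other tissues, had no peak.

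The beta subunits bind the pore inside the cell and are needed for most of these channels to reach the membrane. Cacnb1, Cacnb2, Cacnb3 and Cacnb4 had no peak in any of the 5 libraries, and the nearest reproducible E13.5 sites lay between 241.0 kb (Cacnb1) and 4441 kb (Cacnb2) outside their windows.

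Of the sodium channel pores, 2 of 10 had a site. Scn2a1, which encodes the neuronal pore Nav1.2, had it 867 bp upstream of the start (chr2:65457818-65458276), with scores of 22 and 13 at E13.5 and 4 at E18.5 A. The E13.5 libraries placed it differently, at percentiles 77.6 and 29.5, although its RE1 was among the 2 closest to the consensus. It is printed with its surroundings, the element in capitals.
Scn2a1, chr2:65457981-65458081, plus strand: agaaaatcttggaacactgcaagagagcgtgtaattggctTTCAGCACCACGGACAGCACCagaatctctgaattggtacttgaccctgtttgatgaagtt

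Scn10a, which encodes the sensory neuron pore Nav1.8, had a site 12.6 kb upstream (chr9:119615782-119616284) with scores of 12 and 21 at E13.5 and 6 at E18.5 A. A further Scn10a peak, in an intron 30.04 kb from the start, was in E13.5 A only, with a score of 7. No peak was called at Scn1a, Scn3a, Scn4a, Scn7a, Scn8a, Scn9a or Scn11a. For Scn3a and Scn8a a site lay close to the limit of 50 kb. Scn3a starts head to head with Scn2a1 and lies 52.4 kb from the Scn2a1 site, 2.13 kb beyond the window. Scn8a lies 60.1 kb from a site whose nearest start is that of Slc4a8, 9.86 kb beyond its window. The window of Scn11a, a neighbour of Scn10a, ends 46.6 kb short of the upstream Scn10a site.

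Sodium channel beta subunits are cell adhesion-like proteins that modulate the pore, and 1 of 4 had a reproducible site. The Scn3b site, in the untranslated region 544 bp downstream of the start (chr9:40077124-40077566), scored 13 and 20 at E13.5 and had no E18.5 peak. Scn4b had a peak in E13.5 B only, with a score of 10, which was 415 bp from the start of Tmprss4 and 41.8 kb from that of Scn4b. Scn2b had none.

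**Figure D4:**
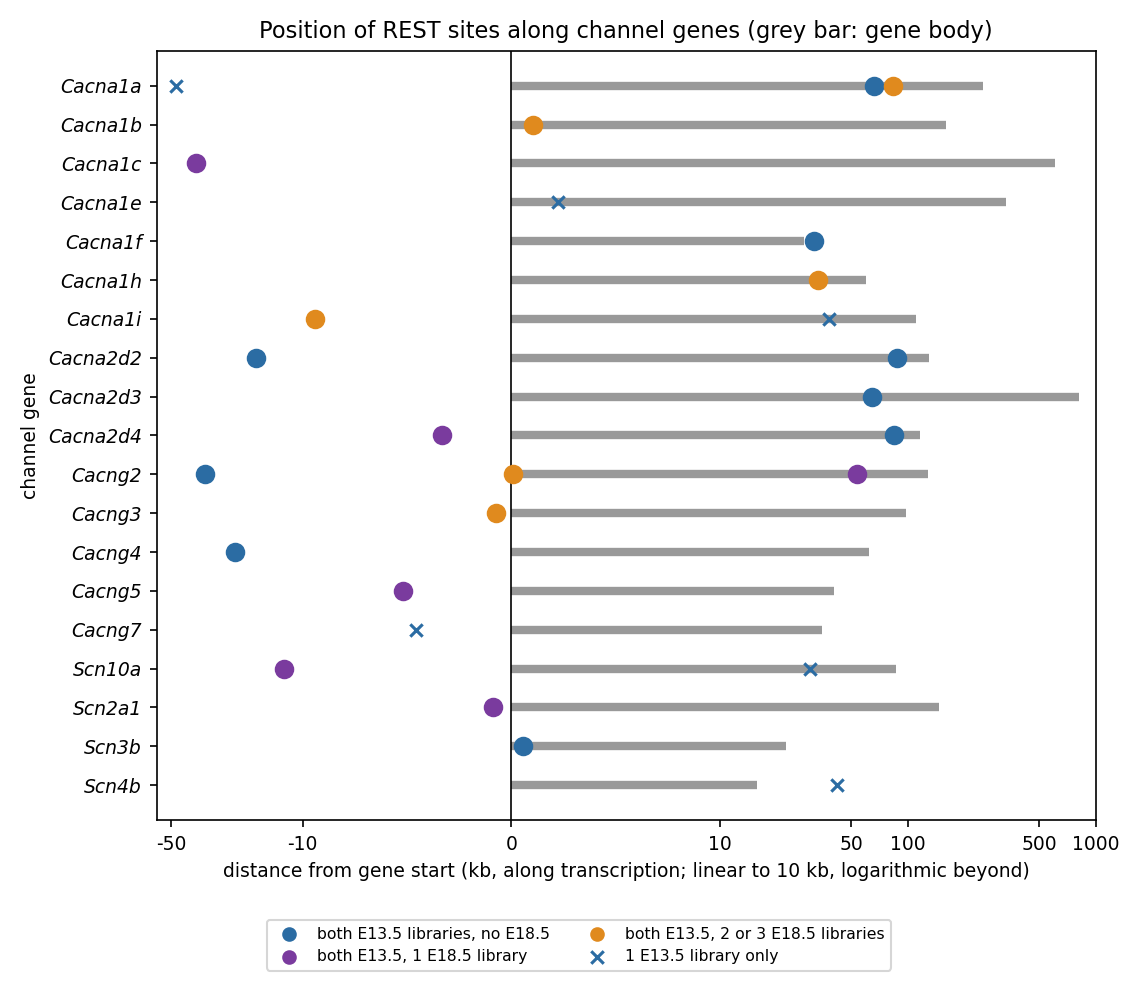
Position of each REST site relative to the start of its gene (x axis, kb along the direction of transcription, linear to 10 kb and logarithmic beyond), for the 19 channel genes with a peak (y axis). Grey bars are gene bodies, dots are sites of both E13.5 libraries coloured by the number of E18.5 libraries, crosses are peaks of a single E13.5 library; dots sit at or near the start of Cacng2, Cacng3, Cacna1b, Scn2a1 and Scn3b and deep inside Cacna1a, Cacna1h, Cacna2d2, Cacna2d3 and Cacna2d4.

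By place, 9 of the 20 sites were intergenic, 7 intronic, 2 in an untranslated region and 2 in a coding exon, the last of these both in other genes (Syp and Lrtm2). A channel gene's body held 10 of 20. For 17 of 20 the nearest protein-coding start belonged to a channel gene. By their centre, 7 of 20 (35%) lay within 5 kb of any protein-coding start, beside 34.1% of all sites of both E13.5 libraries. The median of the mean E13.5 percentile was 67.3 for the 20 sites and 54.4 for all 1186.

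Fewer channel genes had a peak at E18.5, where the lists were also shorter. A peak lay at 17 and 18 of the 40 genes in the E13.5 libraries and at 10, 6 and 5 in E18.5 A, B and C. The means were 17.5 ± 0.707 (SD, n = 2) and 7 ± 2.65 (SD, n = 3), a difference of 10.5 genes (two-sided exact permutation test over libraries, p = 0.2, the smallest that 2 against 3 libraries allow). The share of all genes with a peak in each library is not given here. Over all protein-coding genes, 6.93% had a site in both E13.5 libraries and 2.21% had one in at least 2 E18.5 libraries. The number was thus lower at E18.5 for genes at large too. When only the 226 highest-scoring peaks of every library were used, the difference was −2.33 genes, E13.5 being lower. As a share of all peaks of the library, peaks at channel genes made up 1.71% (24 peaks, exact interval 1.10% to 2.54%) and 1.65% (22 peaks, 1.04% to 2.49%) at E13.5. At E18.5 they made up 1.85% (10 peaks, 0.890% to 3.37%), 1.44% (6 peaks, 0.530% to 3.11%) and 2.21% (5 peaks, 0.722% to 5.09%). The stages overlapped in this share, with means of 1.68% ± 0.0452 (SD, n = 2) for the earlier and 1.83% ± 0.387 (SD, n = 3) for the later stage, a difference of −0.151 percentage points (two-sided exact permutation test, p = 0.8), which turned to 0.0387 without E18.5 C. The difference was −0.737 points with the 226 highest-scoring peaks of every library, −0.434 with a limit of 5 kb in place of 50 kb, and −0.440 within 5 kb of a transcript start (exact permutation p = 0.2 for each). The p-values rank the observed difference among the 10 ways to divide the libraries, and they measure neither its size nor the spread between libraries. How far the number of called peaks follows depth was not tested.

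**Figure D5:**
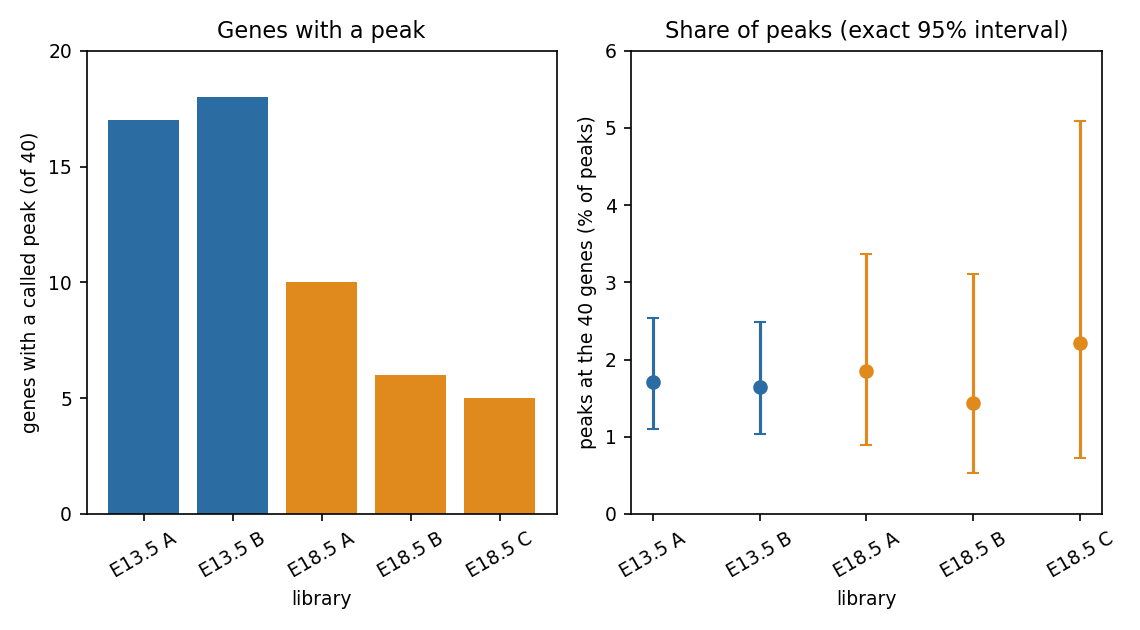
Left, number of the 40 channel genes with a called peak in each library (bars). Right, peaks at channel genes as a percentage of all peaks of the library (points) with exact 95% binomial intervals (bars); the number falls from 17 and 18 at E13.5 to 10, 6 and 5 at E18.5, and the intervals of the share overlap in all 5 libraries.

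A site called in at least 2 E18.5 libraries was found at 6 of 40 channel genes (15%, exact interval 5.71% to 29.8%), against 2.21% of all genes. They were the pore genes Cacna1a, Cacna1b, Cacna1h and Cacna1i and the gamma genes Cacng2 and Cacng3, each at a site of both E13.5 libraries. The Cacna1a site ranked low in both E18.5 libraries that called it, at percentiles 9.11 and 14.4. No sodium channel, alpha2delta or beta gene was among these 6. Of the 26 sites at channel genes in any library, none had E18.5 peaks only, whereas 322 of the 1860 sites joined over the 5 libraries did.

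Of the 20 sites of both E13.5 libraries, 11 were called again in at least 1 E18.5 library (55%, interval 31.5% to 76.9%), against 480 of all 1186 (40.5%). All 5 libraries called 4 of the 20 (20%), at the Cacng2 start, Cacng3, Cacna1b and Cacna1h, and 9.53% of all sites. The share of 55% called again rested on E18.5 A, which called 10 of the 20, and without that library it was 30%. Over all 1186 sites E18.5 A also called the most, 28.5% against 23.7% in B and 18.4% in C. The 11 sites called again had a median E13.5 percentile of 79.0 (51.4 to 99.2) and the 9 others one of 47.0 (16.7 to 78.9), and over all 1186 sites these medians were 78.7 and 41.2. The sites not called again thus had the lower median E13.5 percentile, with overlapping ranges, and the part of depth in this was not tested.

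A scan of the whole mm9 genome for the consensus with at most 3 mismatches showed how many close elements had a peak. Of 446 such elements, 343 (76.9%) lay in a site of both E13.5 libraries and 384 (86.1%) in a site of any library, though the consensus itself came from such sites. The windows of channel genes held 14 of them, of which 10 (71.4%) lay in a site of both E13.5 libraries. Another 2, the Cacng7 element and that of the Scn10a intron, lay in a peak of 1 library. The last 2, in introns of Cacna1a and Cacng2, lay in no peak, and they are printed because genes with called sites carried them.
Cacna1a, 80.9 kb from the start, chr8:86993186-86993206, minus strand: TgCAGCACCATGGACAGaaCC
Cacng2, 90.2 kb from the start, chr15:77860236-77860256, plus strand: TTCAGCACCtTGGtCAGaGCC
Among the 24 channel genes without a site in both E13.5 libraries, the Cacng7 element was the only one with at most 3 mismatches.

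Genes that bind, anchor or traffic these channels, or encode related cation channels, were taken as a list of 28. A site in both E13.5 libraries lay at 5 of them (17.9%), beside 6.93% of all genes. Among genes with a window at least as long as the channel genes' median, the share was 11.7%. The windows of these 28 genes were not matched in length, and no test was made over them. Unc80 and Unc79 encode auxiliary proteins of the sodium leak channel NALCN. The Unc80 site lay 0.221 kb upstream of its start with a mean E13.5 percentile of 90.9 and peaks in 3 E18.5 libraries, and the Unc79 site 0.885 kb downstream with a percentile of 82.1 and peaks in 2. The pore gene Nalcn itself had no peak. Rimbp2, which encodes a protein linking presynaptic calcium channels to release sites, had 3 sites, the best at percentile 79.9. Fgf14 and Spnb4, whose proteins bind and anchor sodium channels, had 1 site each, at percentiles 58.4 and 58.1. No peak in any library was found at 20 of the 28.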

How the data were processed

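REST ChIP-seq peak lists of 5 libraries were used, 1 list per library. As stated in the methods and in the submitters' processing notes, the authors aligned single-end reads to mm9 (Bowtie2 2.2.5), required a mapping quality of at least 10, and used MACS2 2.1.0 with input DNA as control. Per the names of the lists, duplicates were removed and the false discovery rate was 10%. The methods state that replicate reads were pooled before peaks were called, at a stricter false discovery rate. The REST regions of the paper therefore differ in threshold and in calling unit from the lists used here. The score of a peak is the authors' deposited value and its unit is not stated, so it was used as a rank within a library, ties taking their average rank. Without read totals the depth is unknown. Intervals cover only counting error over the peaks, sites or genes counted, taken as independent, and not the spread between libraries.

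Overlapping entries of a list were joined (7 and 2 at E13.5, 4, 2 and 3 at E18.5), and 25 peaks on unassembled sequence were assigned to no gene. Peaks of different libraries that overlapped by at least 1 bp were joined into 1860 sites, and those called in both E13.5 libraries (1186), or in at least 2 E18.5 libraries, were taken as reproducible. Genes came from GENCODE vM1 on mm9, positions count from 1, and a gene listed under several records was joined by symbol. Sequences were read from mm9, where 3 reproducible sites on unassembled sequence were not searched. Stages were compared over libraries with exact two-sided permutation tests (scipy 1.17.1, Python 3.11.15). The joining, assignment, motif search and permutation test were tested on simulated data.

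All channel genes are counted: those with a site in both E13.5 libraries are described with each library's score, those with other peaks are named with the library, and the rest are named together, except for items that are not reported here. Partner genes are named where a site was called in both E13.5 libraries. The genes, lists, tests and alternatives were chosen with earlier results of these data known. Alternatives were the 226 highest-scoring peaks of each library, narrower windows around genes, a larger overlap, fewer mismatches, another motif window, leaving out each library, and a pairing by letter.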

Additional observations from a re-analysis of the deposited data

How the results depend on the processing

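With the 226 highest-scoring peaks of each library, the stage difference in channel genes with a peak became −2.33. That in the share of peaks became −0.737 percentage points (exact permutation p = 0.2 for each). Only 2 channel genes and 1 partner gene then had a site in both E13.5 libraries. Of the sites at these 2 channel genes, 100% were called again at E18.5 and 66.7% had an RE1, and their median percentile was 84.8. These values rest on very few sites, and the same shares over all sites and all genes are not given. Counting only sites whose edge lay within 5 kb of a transcript start left 7 channel genes with a site in both E13.5 libraries. In at least 2 E18.5 libraries 3 channel genes had one. Under this rule 1.9% of all genes had a site in both E13.5 libraries, and the share of all genes at E18.5 is not given. The E18.5 count therefore has no background beside it. Of the few E13.5 sites left by this rule, 85.7% were called again. The difference in share was −0.440 points then and −0.434 with gene bodies and 5 kb around the start (exact permutation p = 0.2 for each). With at most 3 mismatches an RE1 was found at 50% of the sites. Among elements at other sites found with at most 5 mismatches, 1.33%, 9.20% and 29.3% had 1, 2 and 3. Counting only sites whose nearest start was the channel gene's, an alternative chosen after seeing the data, left 14 of 40 genes (35%), against 3.34% of all genes.

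Leaving out 1 library at a time gave a stage difference of 9.5 to 12 genes and of −0.348 to 0.0387 percentage points in the share of peaks, the sign of the latter turning without E18.5 C. Channel genes with a site numbered 17 to 18 at E13.5 and 4 to 5 at E18.5, and 30% to 55% of sites were called again (30% without E18.5 A). The shares of all genes with a library left out are not given, so these counts have no background beside them. An RE1 was found at 79.2% to 86.4% of them, and the median percentile was 57.9 to 64.2. With 1 E13.5 library left, a site need no longer be in both. The E13.5 counts and percentiles are then those of a single library, and the count could not fall. A replicate block that pairs the letters A and B across stages gave differences of 9.5 genes and 0.0387 percentage points, but the letters mark different embryos and are no pairing of the design. The cause of these changes was not tested, beyond the fewer peaks or libraries each alternative uses. Unknown depth limits every statement on a peak that was not called.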
